A study of Danio rerio with 2 samples.

Results

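Haemoglobin, the oxygen carrier of red blood cells, is built from alpha and beta globin chains, each of which holds a haem group. Zebrafish carry adult globin genes (hbaa for alpha, hbba for beta) and embryonic and larval ones (hbae and hbbe), and fish red cells keep their nucleus. A whole heart holds blood in its chambers, so its RNA includes globin transcripts of red cells. The globin genes described here are hbaa1, hbba2, hbae3 and hbbe2 and every other gene whose symbol in the platform annotation starts with hbaa, hbba, hbae or hbbe. They were found by symbol, which gave 11 globin gene symbols out of 9025 in the annotation, on 10 of 15502 non-control probe sets. A probe set is a group of array probes meant for 1 target.

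Of the 10 probe sets, 6 were annotated to a single gene and covered 5 genes, which were hbaa1 (Entrez gene 30507), hbba2 (445037), hbae3 (30601, with 2 probe sets), hbbe2 (405772) and hbbe3 (30596). The other 4 were annotated to several closely related genes at once and were kept under all their names. They were 1 probe set for ba1l, ba2 and hbba1, 2 for hbae1.1 and hbae1.2, and 1 for hbbe1.1, hbbe1.2 and hbbe1.3. Globin genes have close copies, so even a probe set annotated to a single gene may take up transcripts of a relative. Probe sequences were not analysed here, so the value of any single globin gene is uncertain to that extent.

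The samples were a pool of hearts from adult zebrafish exposed to atropine and a pool from adult zebrafish exposed to water. Atropine blocks muscarinic acetylcholine receptors, through which the vagus nerve slows the heart. In both groups about 20% of the ventricle had been removed at the apex, and 15 whole hearts were collected and pooled 24 hours later, so the controls carry the injury too. Each pool was measured on 1 array, and the dose of atropine, the strain and the sex of the fish are not given in the labels. The comparison asks how transcripts of the injured heart differ under atropine. With 1 array per group it has no replicate check, no test and no p-value, and every value below describes these 2 pools. In whole hearts, more red cells and more globin RNA per red cell cannot be told apart.

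Values are the deposited levels on a log2 scale, where each unit stands for a factor of 2. Across all non-control probe sets they ran from 2.02 to 14.05. A difference is the level on the atropine array minus that on the water array. Counts were made over the 7961 probe sets whose higher value reached 4.05, the median of all values. The median difference over those was -0.01. The heart muscle marker genes myl7 (13.21 on the atropine array, 13.23 on the water array) and tnnt2a (12.525 on the atropine array, 12.522 on the water array) were near the top of the range on both arrays. In the same marker list tnnc1a (8.13 in atropine, 9.54 in water) and myh7 (5.76 in atropine, 6.95 in water) were over 2-fold lower in atropine. Of the control probe sets for polyadenylated bacterial transcripts, 13 reached the filter, and each read lower in atropine than in water (median difference -0.48). Their part in the globin values was not tested.

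The 3 adult globin probe sets were higher on the atropine array. The adult beta globin hbba2 was 2.52-fold higher, while the other adult globin probe sets, hbaa1 and the shared set of ba1l, ba2 and hbba1, were 1.15-fold and 1.11-fold higher. Both of these had a mean level of 12 or more. Of the 76 probe sets that bright, 0 were at least 1.5-fold higher, against 2.11% of all compared probe sets. Of the same 76, 0 were at least 1.5-fold lower, against 2.29% of all compared probe sets. Whether the upper end of the measurable range held down the folds of hbaa1 and the shared set was not tested. Their gap to hbba2 is therefore not read as a difference between the genes. Embryonic globin probe sets were dim, and 1 of them, shared by hbae1.1 and hbae1.2, was 1.54-fold higher. Over all 10 probe sets, 8 had a difference above 0 and 2 below 0, with a median of 0.15. All 10 lay above 0 when the arrays were centred on the polyadenylated spike-ins. That centring adds 0.48 to every difference and brings the median over all compared probe sets to 0.47. The share of all probe sets above 0 under it was not counted, so the 10 of 10 is not read as a globin result. All 5 beta probe sets and 3 of the 5 alpha probe sets were above 0 as deposited, but hbbe3 turned to -0.02 after quantile normalization or loess, and the shared adult beta set came to 0 after quantile normalization. Among all 15502 non-control probe sets, with no level filter, 50.7% were above 0, and among the compared ones 48.5%.

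**Figure D1:**
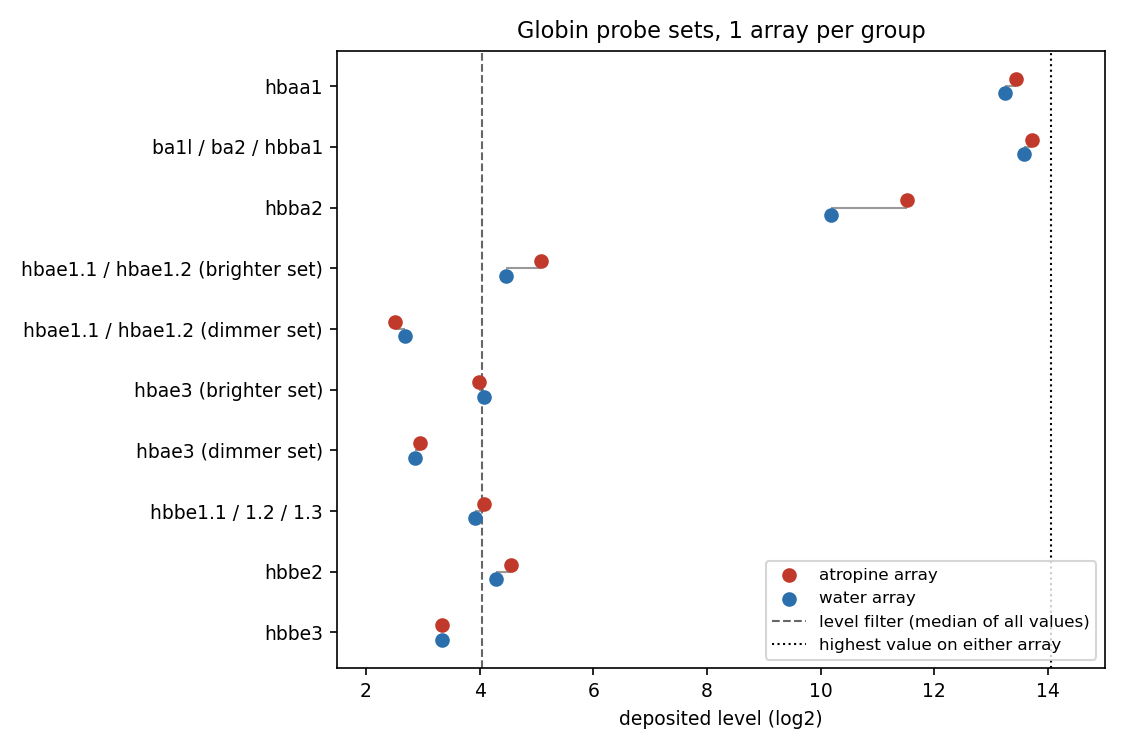
Deposited log2 levels of the 10 globin probe sets on the atropine array (red) and the water array (blue), 1 array per group, with the level filter at 4.05 (dashed) and the highest value on either array at 14.05 (dotted). The hbba2 points lie 1.33 apart, the other adult globins lie close to the dotted line, and the embryonic ones lie around or below the filter.

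Of the 10 probe sets, 7 reached the level filter and 3 did not. Among the 7, 2 were at least 1.5-fold higher in atropine, hbba2 and the brighter hbae1 set, where 2.11% of all compared probe sets were. None of the 7 was at least 1.5-fold lower, against 2.29% of all compared probe sets. At least 2-fold higher was hbba2 alone, against 0.352% of all compared probe sets. The counts are small, and the 3 probe sets under the filter could not have entered them.

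Adult alpha globin was represented by hbaa1, whose product pairs with adult beta chains in haemoglobin. Its level was 13.45 on the atropine array and 13.25 on the water array, a difference of 0.20. It ranked 4 from the top on the atropine array and 6 on the water array. It lay 0.61 below the brightest probe set on the atropine array and 0.79 below it on the water array, near the top of the range on both.

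Adult beta globin was measured by a shared probe set and by hbba2. The shared set of ba1l, ba2 and hbba1 stood at 13.73 on the atropine array and 13.58 on the water array, a difference of 0.15. It was the probe set with rank 2 on both arrays, 0.32 below the brightest on the atropine array and 0.46 below it on the water array. Ranks describe where in the measurable range a probe set lies and say nothing of how abundant 1 globin is beside another.

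The hbba2 probe set stood well clear of the top. Its level was 11.52 on the atropine array and 10.18 on the water array, a difference of 1.33. On the linear scale this is a signal of 2927 in atropine and 1163 in water. It lay 2.54 below the brightest probe set on the atropine array and 3.86 below it on the water array. Its rank was 123 on the atropine array and 262 on the water array.

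The observed spread of the differences varied with the level, for reasons that were not tested. Among the 211 compared probe sets with a mean level from 10 to 12, the differences had a standard deviation of 0.24, and hbba2 had the highest of them. Among the 76 probe sets with a mean level of 12 or more, the standard deviation was 0.09 and none was 1.5-fold apart. The 100 brightest probe sets spanned -0.23 to 0.36. Within these 100, hbaa1 had the third highest difference and the shared adult beta set the one in place 4. Only fth1a, which encodes a ferritin heavy chain (0.36), and ppdpfa (0.29) were above them. As deposited, the 2 brightest globin sets were thus small in fold and yet near the upper end of what probe sets of that brightness showed. For the shared set this depends on the scaling: after quantile normalization its difference was 0, while that of hbaa1 was 0.18. The deposited table carries no saturation flag, so whether these readings were saturated was not tested.

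**Figure D2:**
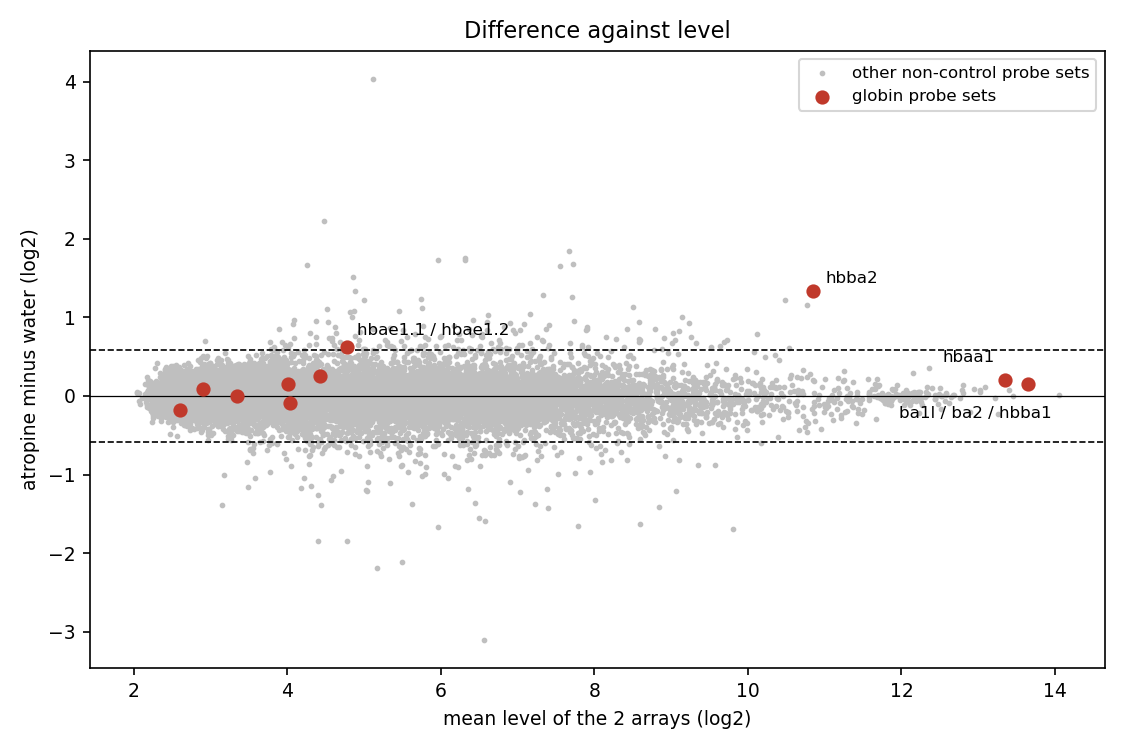
Difference between arrays (atropine minus water, log2) against the mean level of the 2 arrays (log2) for the non-control probe sets (grey) and the 10 globin probe sets (red), with dashed lines at 1.5-fold. The spread of the grey points narrows at high levels, where the standard deviation is 0.09 from a level of 12 upward, and hbba2 lies above all others between 10 and 12.

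Embryonic and larval alpha globins were near or below the median of all values (4.05), in the lower part of the range. The probe set shared by hbae1.1 and hbae1.2 that was brighter stood at 5.08 on the atropine array and 4.46 on the water array, a difference of 0.62. The second probe set of the same genes stood at 2.52 on the atropine array and 2.70 on the water array, a difference of -0.18, with both values under the filter. The second set, being under the filter, gives no usable direction for these genes. An offset of 16 on the linear scale, which damps differences between low values, brought the brighter set to 0.39, or 1.31-fold.

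For hbae3 the brighter probe set had 3.99 on the atropine array and 4.08 on the water array, a difference of -0.09. This set passed the filter through its water value alone. The dimmer one had 2.94 in atropine and 2.86 in water, a difference of 0.09. No direction can be given for hbae3 from these.

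The embryonic and larval beta globins were also dim. For hbbe2 the level was 4.56 on the atropine array and 4.29 on the water array, a difference of 0.26, which the offset brought to 0.15. The shared set of hbbe1.1, hbbe1.2 and hbbe1.3 had 4.08 in atropine and 3.93 in water, a difference of 0.15, and it passed the filter through its atropine value alone. The hbbe3 set had 3.34 on both arrays, a difference of 0.0035. Among the 7541 probe sets under the filter the standard deviation of the differences was 0.16. The 3 embryonic sets under the filter had differences from -0.18 to 0.09, which is about that size or smaller. Among the 6856 compared probe sets with a mean level below 8 the standard deviation was 0.29. The brighter hbae3 set (-0.09), the hbbe1 set (0.15) and hbbe2 (0.26) differed by less than that, and the brighter hbae1 set (0.62) by more. That spread is over different genes across the whole band, and these sets lie at its low end.

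The globin genes lie in 2 clusters, and the array covers them unevenly. In the RefSeq gene table of the GRCz12tu assembly, 13 globin genes lie together on chromosome 3, among them all adult ones, and 4 on chromosome 12. These 17 genes were taken as those whose symbol or synonym has 1 of the 4 prefixes, with ba1l among them. An annotated probe set covered 10 of the 13 and 2 of the 4. Without one were hbaa2, si:ch211-5k11.8 (also called hbaa1.2), hbae1.3, hbae4 and hbae5, so adult alpha globin rests on hbaa1 alone. No coordinates are given, because the array annotation names no build.

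Next to hbba2 on chromosome 3 lie hbaa2 and ba1l, and the order goes on through hbaa1 and hbba1. The differences were 1.33 for hbba2, 0.15 for the shared set of ba1l and hbba1 and 0.20 for hbaa1. The last 2 come from the top of the range, and whether a ceiling limited them was not tested. The 3 nearest protein-coding genes outside each end of both clusters were looked up after the globin values had been seen. None of the 6 beside the chromosome 3 cluster had an annotated probe set, and 3 of the 6 beside the chromosome 12 cluster had. Of these, aqp8a.1, which encodes a water channel, stood at 11.10 on the atropine array and 9.88 on the water array, a difference of 1.22. The others were mgrn1a (0.35) and lcmt1 (0.15). The globins of that cluster, hbbe2 and hbbe3, differed by 0.26 and 0.0035.

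**Figure D3:**
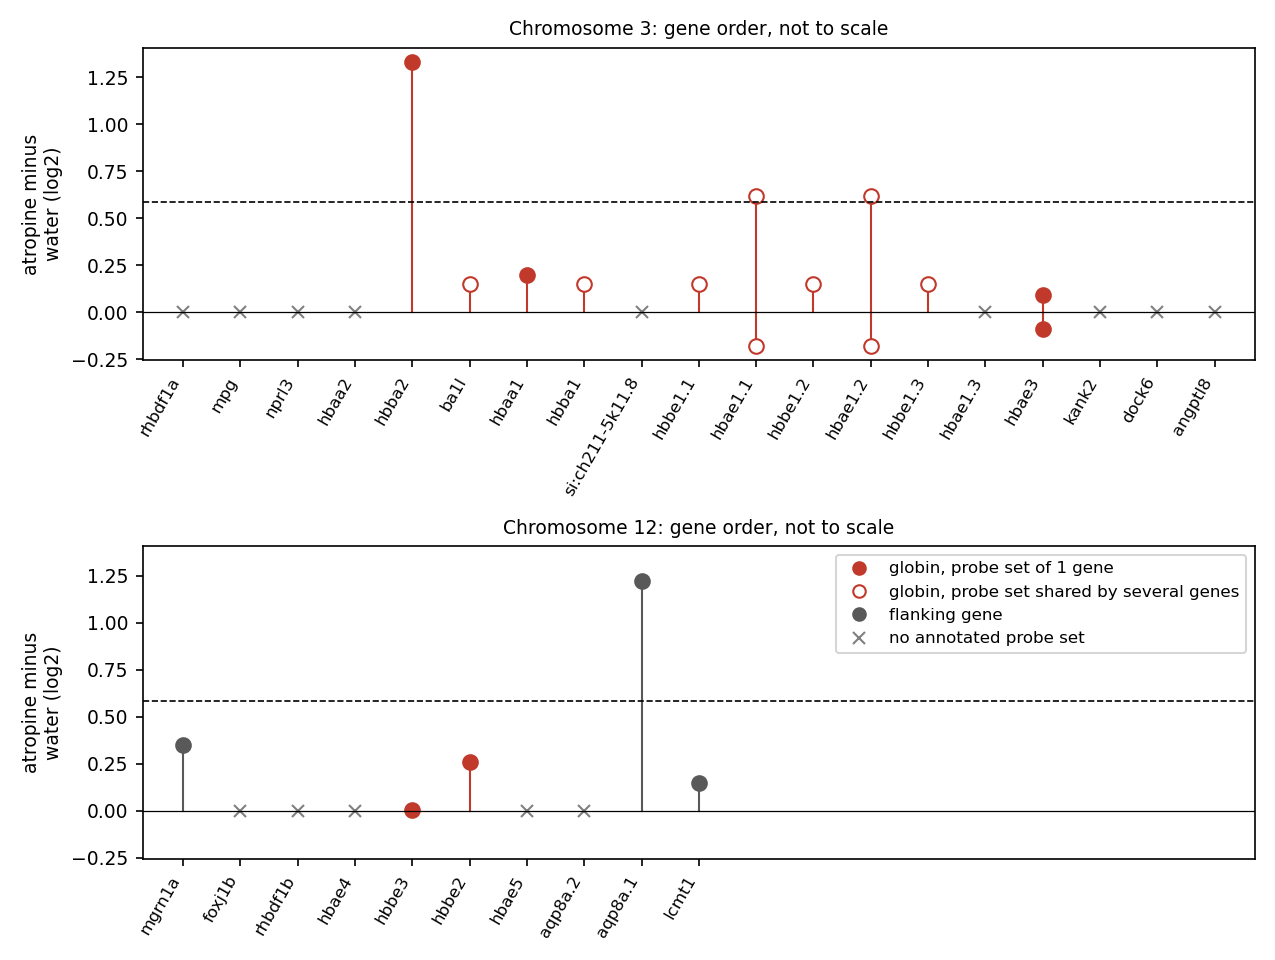
Difference (atropine minus water, log2) of every probe set of the globin genes and of the 3 nearest protein-coding genes on each side, in gene order and not to scale, for the clusters on chromosome 3 (top) and chromosome 12 (bottom). Filled red points are probe sets of a single globin gene, open ones are probe sets shared by several genes and drawn at each, grey points are flanking genes, crosses are genes with no annotated probe set, and the dashed line marks 1.5-fold. The points of hbba2 (1.33) and aqp8a.1 (1.22) stand highest.

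The genes whose difference was nearest to that of hbba2, over the 2 arrays, were hif1al (1.28), a hypoxia-inducible factor gene, gbp (1.26), tbx5a (1.24), a heart and fin transcription factor gene, aqp8a.1 (1.22) and mibp (1.16). The measure of likeness was the gap between the differences, which was 0.05 for hif1al and 0.17 for mibp. Over 2 arrays such a likeness reflects only the size of 1 difference. No red cell gene of the lists below was among the 5, but the cut at 5 left out fthl28 of the iron list, which differed by 1.51.

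Other proteins with a globin fold were looked up after the values had been seen. Myoglobin (mb), the oxygen-binding globin of muscle, stood at 12.59 on the atropine array and 12.56 on the water array, a difference of 0.03. Androglobin (adgb) differed by -0.13, from 4.08 in atropine and 4.21 in water. Cytoglobin 1 (cygb1, 2 probe sets) and neuroglobin (ngb) were under the filter on both arrays, with differences of -0.05, -0.11 and -0.0031.

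Genes that act with globins in red cells were taken from 5 lists, chosen with earlier results of these data known. Counts and medians of such lists describe these 2 arrays and are no independent support. The lists give 51 different genes past the filter. Of these, 11 were at least 1.5-fold higher in atropine and none that much lower, against 1.87% and 2.12% of all 5294 compared genes. The count of 11 was 7 with the offset (1.15% of all genes), 1 at 2-fold (0.397%) and 29 when centred on the polyadenylated spike-ins (28.6%). The median over the 51 was 0.24, beside -0.01 over all compared genes. It was 0.12 with no level filter, beside 0 over all genes, and 0.72 when centred on the spike-ins, beside 0.47. The 5 lists had medians from -0.03 to 0.51.

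Haem synthesis genes, which make the group that globin chains bind, were not apart by 1.5-fold in any of 8 cases, with a median of 0.03. Of all 5294 compared genes, 1.87% were at least 1.5-fold higher and 2.12% that much lower. With so few genes, 0 of 8 is near those shares and is not read as a result about haem synthesis. Of the 8, 4 were above 0, beside 2533 of all 5294 compared genes. The brightest of the 8 were alas1, the housekeeping enzyme of the first step (9.59 in atropine, 9.82 in water), and alas2, its erythroid form (9.29 in atropine, 8.99 in water). They differed by -0.23 and 0.30. Beside the hbba2 difference of 1.33 these were small.

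Of 11 erythroid transcription factor genes, 4 were at least 1.5-fold higher, against 1.87% of all 5294 compared genes. The rest were within 1.5-fold, and the median of the list was -0.03. The 4 were klf1 (0.88), an activator of adult beta globin in mammals, tal1 (0.85), gata1a (0.84), the master regulator of red cell genes, and nfe2 (0.75). Their levels were 7.26 in atropine and 6.39 in water for klf1, and 7.02 in atropine and 6.17 in water for gata1a. For tal1 they were 5.54 in atropine and 4.69 in water, and for nfe2 6.17 in atropine and 5.42 in water. With the offset klf1 came to 0.77 and gata1a to 0.72. The offset brought tal1 to 0.579 and nfe2 to 0.582, under the 1.5-fold mark of 0.585. In the same list klf17, another erythroid factor of fish, differed by -0.03.

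Red cell membrane and cytoskeleton genes had a median of 0.51 over 7 genes. Of the 7, 6 were above 0, beside 2533 of all 5294 compared genes. At least 1.5-fold higher were 3, against 1.87% of all compared genes. These 3 were tmod4 (0.88), epb41b (0.73), encoding the band 4.1 protein, and dmtn (0.62), encoding dematin. The anion exchanger gene slc4a1a differed by 0.51 and the beta spectrin gene sptb by -0.01. Of these genes tmod4 is also expressed in muscle, and with the offset it came to 0.53. The offset brought dmtn to 0.582, also under the 1.5-fold mark of 0.585, and epb41b to 0.69.

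Iron and redox genes had a median of 0.28 over 14 genes, with 2 at least 1.5-fold higher, against 1.87% of all compared genes. The 2 were the ferritin-like gene fthl28 (1.51, or 0.97 with the offset) and blvrb (0.68), encoding biliverdin reductase B. Among red cell enzymes the median was 0.19 over 12 genes. At least 1.5-fold higher, against the same 1.87%, were cahz (0.72), the carbonic anhydrase of zebrafish red cells, and nt5c2l1 (0.63). Catalase (cat) and haptoglobin (hp), which binds free haemoglobin, were the lowest of the iron and redox list, at -0.56 and -0.49.

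**Figure D4:**
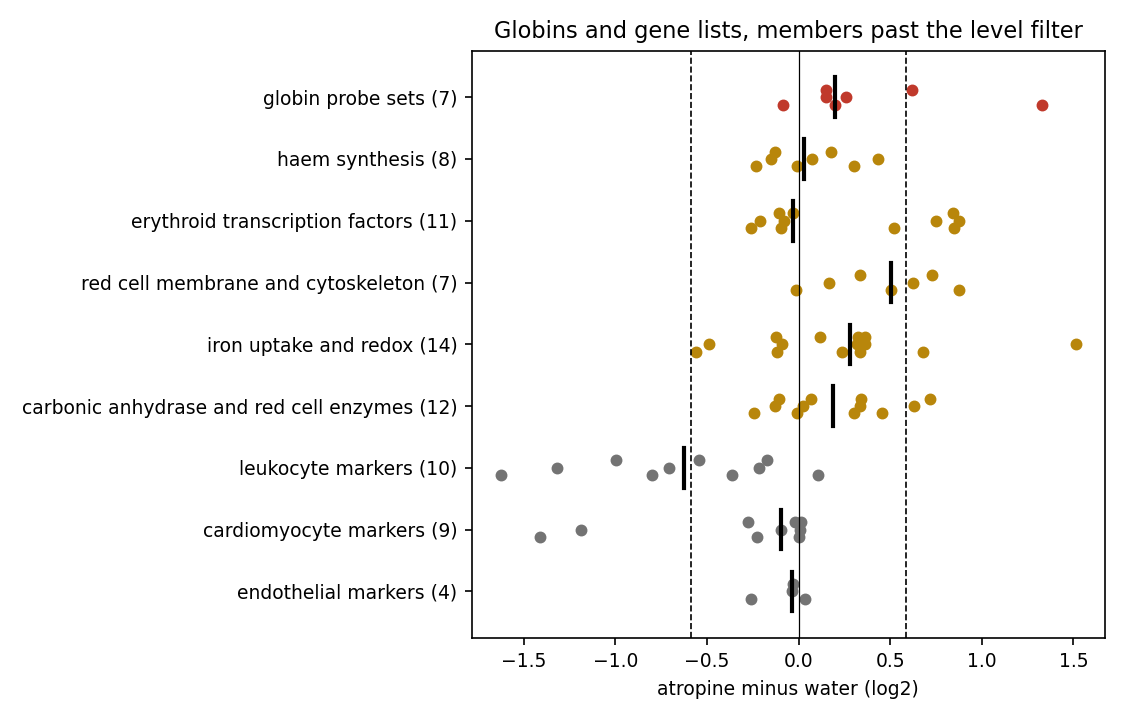
Differences (atropine minus water, log2) of the globin probe sets (red), of the genes of 5 red cell lists (gold) and of markers of other cell types (grey), restricted to those past the level filter, whose number stands in brackets. Points are probe sets or genes, black bars are medians and dashed lines mark 1.5-fold. The globins reach from -0.09 to 1.33, and the leukocyte markers lie lowest, with a median of -0.62.

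Markers of other cell types were looked at on the same arrays, and their lists did not all differ. Of all 5294 compared genes, 2.12% were at least 1.5-fold lower and 2533 genes were above 0. Of 10 leukocyte markers 5 were at least 1.5-fold lower and 9 were below 0, with a median of -0.62. Their summed linear signal was 2040 in atropine and 3220 in water. The lowest were cd74a (-1.63) and cd74b (-1.32), while marco (-0.36), lcp1 (-0.22) and coro1a (-0.17) were within 1.5-fold, and csf1ra (0.10) was above 0. The sum weighs bright genes most, so it is not read as an amount of leukocytes. Of 9 cardiomyocyte markers 2 were at least 1.5-fold lower, tnnc1a (-1.41), encoding cardiac troponin C, and myh7 (-1.19), a ventricular myosin heavy chain gene. The list's median was -0.09, and the summed linear signal of the 9 was 35213 in atropine and 38250 in water. Bright genes weigh most in that sum, among them actc1a (13.14 in atropine, 13.37 in water), near the top of the range. Whether a ceiling limited such values was not tested. The 4 endothelial markers had a median of -0.03 and none was 1.5-fold apart. The thrombocyte markers itga2b, thbs1b and gp1bb were under the filter on both arrays, and nfe2, which is also in the erythroid list, was past it. The part of these markers in the globin values was not tested.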

How the data were processed

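Total RNA of whole zebrafish hearts was extracted with Trizol and, per the labels' protocols, prepared with the Affymetrix 3' IVT Express method. The deposited table gives 1 value per probe set and array, taken here as log2 from its range. How the authors summarised and normalized it is not given in the sources used here. Their sorted values differed between the arrays by at most 0.15, and that largest gap was at rank 2, held on both arrays by an adult globin probe set. Detection calls and scanner files were not used here.

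Gene names came from the platform annotation. For probe sets with a single symbol they were updated through Entrez identifiers, and 99.2% of those probe sets had an identifier found in RefSeq. A single symbol was given to 10795 of the 15502 non-control probe sets, several to 135 and none to 4572. Differences were taken as deposited, without re-centring. Where a gene had several probe sets, the one with the highest mean level stood for it in the lists. Of 153 list entries, 90 matched a probe set. Members and lists were chosen with earlier results of these data known. Named were every globin probe set, up to 4 members per direction of each red cell list at least 1.5-fold apart or else the 2 brightest, and the 5 genes nearest to hbba2. Other genes were chosen after their values were seen. Alternatives were 5 scalings (with loess at span 0.4), an offset of 16, other filters and thresholds, and 1 value per gene. The calculations were tested on simulated arrays with differences well past 1.5-fold, planted in probe sets well above the level filter. Calls near 1.5-fold or at low levels were not checked in this way. Python 3.11.15, numpy 2.4.6, pandas 2.3.3, statsmodels 0.14.6 and matplotlib 3.10.9 were used.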

Additional observations from a re-analysis of the deposited data

How the results depend on the processing

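No paired analysis was possible because each group holds 1 array. With no replicates, a value was taken as moved when it changed by more than 0.1 (log2), and a count when it changed by more than 1.5 times. The count of 2 globin probe sets at least 1.5-fold higher held under median centring, quantile normalization, loess, centring on cardiomyocyte markers and no level filter. Under these the share of all probe sets ran from 1.09% with no level filter to 3.33% with cardiomyocyte centring. The count was 1, hbba2, of 7 with the offset of 16 (1.14% of all compared probe sets) and of 7 at 2-fold (0.352%). With the filter at the upper quartile (5.98) it was 1, hbba2, of 3, against 2.71% of all probe sets past that filter. Without probe sets whose names end in _x_at, _s_at or _a_at it was 1, hbba2, of 4, against 2.11%. The upper quartile and name-ending settings left out the brighter hbae1 set rather than bringing it under 1.5-fold. The hbba2 difference ran from 1.32 to 1.81 over 6 settings. Centring on the polyadenylated spike-ins adds 0.48 to every difference. It gave 6 globin probe sets at least 1.5-fold higher, where 29.8% of all compared probe sets were, and a globin median of 0.63 beside 0.47 over all. It also gave 29 higher red cell genes (28.6% of all genes) with a median of 0.72. All 10 globin differences then lay above 0, but the share of all probe sets above 0 under this centring was not counted. Quantile normalization set the shared adult beta set to 0, because its rank is 2 on both arrays and the method gives equal ranks equal values. Beside that, the sign of the brighter hbae3 set turned when centred on cardiomyocyte markers (0.0065), as did that of hbbe3 with quantile normalization (-0.02) and loess (-0.02). For the red cell lists, the count of 11 higher genes (1.87% of all compared genes) was 7 with the offset (1.15%) and 1 at 2-fold (0.397%), and the median was 0.12 with no level filter. The choice of 1 probe set per gene for the red cell lists is the reported setting. No alternative gave a globin probe set at least 1.5-fold lower. The share of all probe sets called lower ran from 0.402% with spike-in centring to 2.68% with the upper quartile filter. For so few globin probe sets a count of 0 is near those shares and is not read as a globin result. For arrays without detection calls, the 3 globin probe sets under the filter show no usable difference.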
